A study of Mus musculus with 6 samples.

Results

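The genes described here are 39 mouse genes of the DNA damage checkpoint and of DNA repair, chosen by symbol from textbook pathway membership. The choice was made with earlier results of these data known, so counts among these genes may not be independent of the data. By Ensembl gene identifier they matched 39 of the 55335 gene rows of the count table. By role, 11 act in homologous recombination, 8 in the Fanconi anaemia pathway, 7 in checkpoint signalling and fork protection, 4 in break sensing and 6 in end joining, and the 3 others are Parp1, Msh6 and Trex1. Their mRNA was measured by RNA-seq in mouse embryonic fibroblasts (MEFs), an adherent connective tissue cell grown from embryos, of wild-type (WT) genotype. Confine cells were seeded on top of a transwell membrane with 3 μm pores and collected after they had passed through it within 15 h, and Ctrl cells were the parental cells. Routine culture was in serum-supplemented Dulbecco's modified Eagle medium, and the labels do not say whether Ctrl cells were also plated on a membrane. The medium on either side of the 3 μm membrane is not given in the sources used here. In the study's separate migration assay with wider pores the upper medium lacked serum and the lower one held it, and if this was so here, serum exposure and passage cannot be told apart. The comparison asked which transcripts differ in cells that have crossed a narrow pore.

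Homologous recombination repairs a broken chromosome by copying the sister chromatid, so it works in cells that are replicating or have replicated their DNA, whereas classical end joining rejoins the ends directly and works in every phase of the cell cycle. The Fanconi anaemia pathway removes crosslinks between DNA strands and hands the resulting breaks to homologous recombination. The kinases ATM and ATR sense breaks and stalled replication forks and act through CHK2 and CHK1 to hold the cell cycle, and many genes of recombination and of the ATR branch are transcribed from late G1 into S phase under E2F factors.

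Promoter stretches of 3 genes are shown first because E2F factors bind the upstream region of many genes of this kind. These stretches belong to genes that were called lower and to a gene that was not called. They come from RefSeq promoter entries on build GRCm38.p6 and are written 5′ to 3′ on the strand of the gene, with the E2F-type word TTTCCCGC, or its reverse complement GCGGGAAA, in capitals. Only stretches before the RefSeq start that overlap no annotated exon are shown. This left out Fancg and Xrcc6, which also had an E2F-type word before the start and were not called. Bard1 lies at chr1:71103148-71103207 on the minus strand, Brca2 at chr5:150522427-150522486 on the plus strand and Chek2 at chr5:110839805-110839864 on the plus strand.
Bard1: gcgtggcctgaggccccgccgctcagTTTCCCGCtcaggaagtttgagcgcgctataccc
Brca2: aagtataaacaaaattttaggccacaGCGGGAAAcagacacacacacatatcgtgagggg
Chek2: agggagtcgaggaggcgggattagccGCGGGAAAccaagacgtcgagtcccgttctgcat
Bard1 and Brca2 were called lower in Confine cells. Chek2, with a log2 fold change of −0.50, lay in the same direction and did not pass the test, as described below.

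The 3 Confine columns held only 2 different libraries. The columns of Confine replicates 1 and 2 were equal in all 55335 genes, so they differed by less than the sampling noise and were counted as 1 sample, which left 3 Ctrl and 2 Confine libraries. Total counts per library were between 22287210 and 32537550. Values below are counts scaled to library size after TMM normalization (CPM), in the order Ctrl replicates 1, 2 and 3 and Confine replicates 1 and 3. The sources do not say that the replicates came from separate cultures, so p-values measure only the spread between these samples, which may be technical. In bulk RNA, fewer cells that express a gene and less of its RNA per cell cannot be told apart. Fold changes are log2 values of Confine minus Ctrl, and a gene was called lower or higher when edgeR's quasi-likelihood test gave a Benjamini-Hochberg adjusted p under 0.05 over the 15881 genes tested. Of 11 fibroblast markers, 8 were abundant enough to be tested and 5 of them rose, with summed levels of 8745 to 9602 CPM in Ctrl and 15730 to 16510 CPM in Confine, while Thy1 and Lum had at most 2 counts and Dcn was at most 0.912 CPM in any library. Of 9 leukocyte markers, Adgre1 and Cd3e were at 0 in every library, and the summed level, led by Lyz2 and Cd68 in Ctrl and by Cd68 in Confine, was 7.61 to 8.499 CPM in Ctrl and 18.6 to 25.9 CPM in Confine. All 13 tested genes of 14 hypoxia-induced genes rose, with a median of 3.03, beside 12.8% of all tested genes higher. The part of these differences in the results below was not tested.

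Of the 39 genes, 38 were abundant enough to be tested. In Confine cells 22 of them fell, 1 rose and 15 passed in neither direction, against 10.2% of all tested genes lower and 12.8% higher. An absolute log2 fold change above 1.5 was reached by 14 of the 22, all lower, against 3.11% of all tested genes past this cutoff in the lower direction. Both Confine libraries were below all Ctrl libraries for 29 of the 38, against 23.6% of all tested genes, and above all of them for 3, Atr, Xrcc4 and Trp53bp1, against 25.9%. The median log2 fold change of the 38 was −0.85 beside −0.0021 for all tested genes. The 38 include the genes that passed the filter on low counts and leave out Trex1, which had 0 counts in every library. The 14 genes past the cutoff stayed called under each of 14 alternative settings, and the other 8 lower genes lost the call in at least 1.

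**Figure D1:**
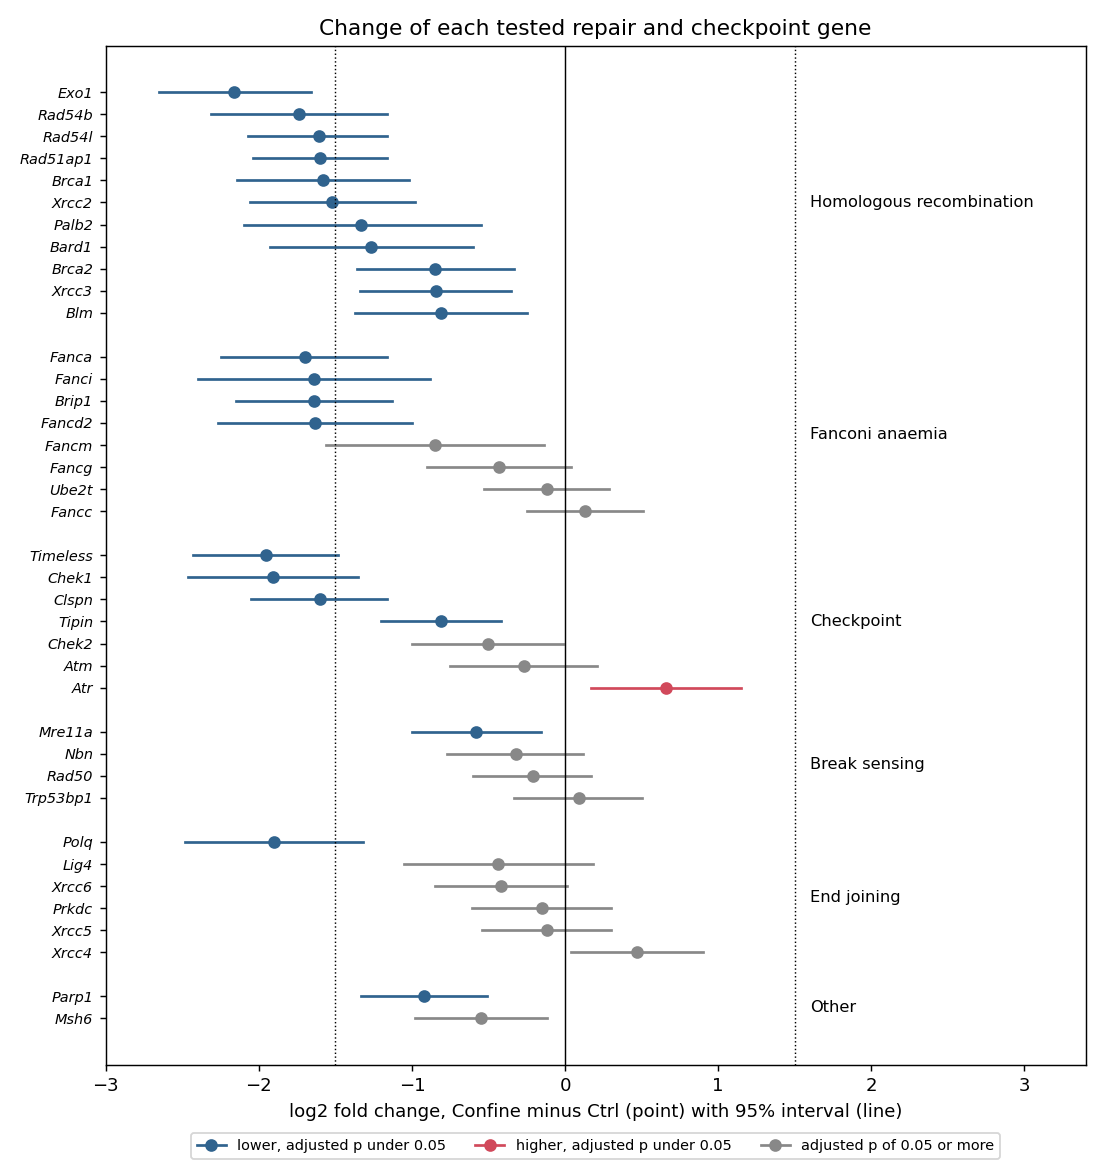
Log2 fold change (Confine minus Ctrl) of each of the 38 tested genes by role, with the point as the estimate and the line as its 95% interval from edgeR. Dotted lines mark the cutoff of 1.5 in each direction. All 11 homologous recombination genes lie below 0, whereas of the end joining genes Polq alone was called, and Atr is the single gene called higher.

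All 11 genes of homologous recombination fell in Confine cells, with a median log2 fold change of −1.52 and a range from −2.16 for Exo1 to −0.81 for Blm. In all 11 both Confine libraries were below the 3 Ctrl libraries. The number called fell from 11 to 6 when Confine replicate 1 was left out, and the 5 genes lost there were Brca2, Bard1, Palb2, Xrcc3 and Blm.

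Exo1, a nuclease that resects broken ends (chr1:175880581-175913489, plus strand, GRCm38), had 21.7, 17.8 and 16.1 CPM in Ctrl and 4.22 and 4.09 CPM in Confine. Its mean fell to 22.4% of the Ctrl mean, a log2 fold change of −2.16 (SE 0.23, adjusted p = 2.14e-06 by edgeR's quasi-likelihood test). The Confine libraries stood well below the lowest Ctrl library and close to each other.

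Brca1 encodes a ubiquitin ligase subunit that promotes resection and loads the recombinase (chr11:101488764-101551955, minus strand). Its levels were 13.5, 18.7 and 10.4 CPM in Ctrl, a mean of 14.2 ± 4.21 (SD, n = 3), and 4.49 and 5.00 CPM in Confine, a mean of 4.75 ± 0.360 (SD, n = 2). Brca1 fell by 1.58 on the log2 scale (SE 0.26, adjusted p = 0.00022 by edgeR), and the groups did not overlap although the Ctrl libraries were spread. Bard1, the partner of BRCA1 in that ligase, had 6.56, 7.52 and 6.04 CPM in Ctrl and 1.76 and 3.85 CPM in Confine. Its log2 fold change was −1.27 (SE 0.32, adjusted p = 0.0066), with Confine replicate 3 more than 2 CPM above Confine replicate 1. Without Confine replicate 1 the Bard1 value was −0.80 (adjusted p = 0.14).

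Brca2, which loads the recombinase onto DNA (chr5:150522630-150570329, plus strand), had 17.8, 21.5 and 12.8 CPM in Ctrl and 8.11 and 11.3 CPM in Confine. It fell by 0.85 on the log2 scale (SE 0.25, adjusted p = 0.017 by edgeR), and the highest Confine library was near the lowest Ctrl library without reaching it. Without Confine replicate 1 the Brca2 value was −0.62 (adjusted p = 0.23). Palb2, which joins BRCA1 to BRCA2, was a low gene at 3.06 to 3.25 CPM in Ctrl and 0.845 and 1.67 CPM in Confine, with a log2 fold change of −1.33 (adjusted p = 0.013), and of −0.90 (adjusted p = 0.17) without Confine replicate 1.

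The genes of the recombinase's cofactors fell by similar amounts. Rad51ap1, whose product stimulates strand pairing, had 29.5, 26.2 and 22.8 CPM in Ctrl and 8.48 and 8.78 CPM in Confine, a log2 fold change of −1.60 (SE 0.21, adjusted p = 1.55e-05 by edgeR). Rad54l, a motor protein that remodels DNA during strand invasion, had 39.7, 28.4 and 42.8 CPM in Ctrl and 11.6 and 12.6 CPM in Confine, a log2 fold change of −1.61 (SE 0.22, adjusted p = 2.22e-05). In both genes the Confine libraries lay within about 1 CPM of each other and far below every Ctrl library. Lrrc41, on the opposite strand, shares 15.4% of the exon bases of Rad54l and had a mean count of 1056 against 713 for Rad54l. Rad54b, a related motor protein, had 9.67, 7.45 and 9.87 CPM in Ctrl and 2.26 and 3.14 CPM in Confine, a log2 fold change of −1.74 (SE 0.27, adjusted p = 0.00012). Of the exon bases of Rad54b, 35.8% also belong to Fsbp on the same strand, whose mean count was 19.8 against 171 for Rad54b. Xrcc2, a paralog of the recombinase, had 9.98, 10.7 and 7.87 CPM in Ctrl and 3.11 and 3.53 CPM in Confine, a log2 fold change of −1.52 (SE 0.26, adjusted p = 0.00023).

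Xrcc3 and Blm were the least changed of the recombination genes together with Brca2. Xrcc3, another recombinase paralog, fell by 0.84 (adjusted p = 0.014 by edgeR), and was not called without Ctrl replicate 1 (adjusted p = 0.072), Confine replicate 1 (0.15) or Confine replicate 3 (0.063). Blm, a helicase that dissolves joined chromosomes, had 10.9, 11.3 and 8.63 CPM in Ctrl and 4.22 and 7.54 CPM in Confine, a log2 fold change of −0.81 (SE 0.27, adjusted p = 0.034). Confine replicate 3 was within about 1 CPM of the lowest Ctrl library, and without Confine replicate 1 the Blm value was −0.45 (adjusted p = 0.39). Blm was also not called without Ctrl replicate 1 (adjusted p = 0.087) or Ctrl replicate 2 (adjusted p = 0.061).

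**Figure D2:**
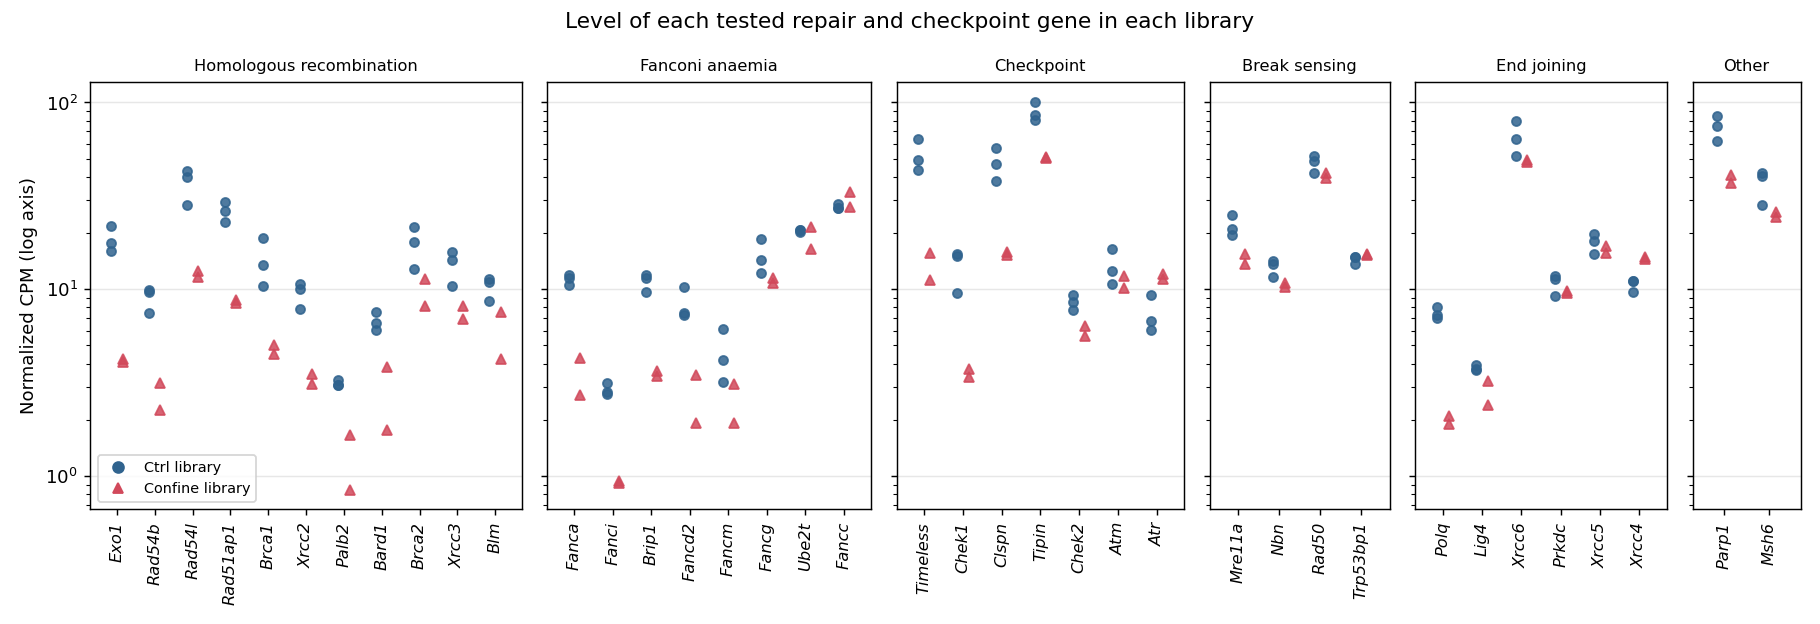
Level in CPM on a log axis of each of the 38 tested genes by role, with 1 point per library, blue circles for Ctrl and red triangles for Confine. The Confine points of Exo1, Brca1, Chek1 and Polq lie below all Ctrl points, whereas those of Atm and Prkdc overlap them and those of Atr lie above them.

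In the Fanconi anaemia pathway, 4 of 8 genes fell, all 4 past the cutoff, and the other 4 were not called, with a median log2 fold change of −1.24. Of all tested genes 10.2% were called lower and 3.11% passed the cutoff in that direction. The 4 that fell were Fanca, Fancd2, Fanci and Brip1. Fanca, a subunit of the core ubiquitin ligase complex, had 11.5, 11.98 and 10.6 CPM in Ctrl and 2.70 and 4.29 CPM in Confine, a log2 fold change of −1.70 (SE 0.26, adjusted p = 8.56e-05 by edgeR). Fancd2 and Fanci encode the paired subunits of the clamp that this complex modifies at a crosslink. Fancd2 had 7.29, 10.3 and 7.49 CPM in Ctrl and 1.93 and 3.49 CPM in Confine, a log2 fold change of −1.63 (SE 0.30, adjusted p = 0.00056). Fanci had 3.14, 2.76 and 2.81 CPM in Ctrl and 0.946 and 0.913 CPM in Confine, a log2 fold change of −1.64 (SE 0.36, adjusted p = 0.0025). Both clamp genes were lower in each Confine library than in any Ctrl library, and Fanci rested on 23 and 28 counts in the Confine libraries. Polg, on the opposite strand, shares 16.0% of the exon bases of Fanci. Zfp276, on the strand opposite to Fanca, shares 10.5% of the exon bases of Fanca. Brip1, a helicase that binds BRCA1, had 11.4, 11.9 and 9.65 CPM in Ctrl and 3.65 and 3.42 CPM in Confine, a log2 fold change of −1.64 (SE 0.24, adjusted p = 6.46e-05).

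The uncalled Fanconi genes were 2 further core complex subunits, the translocase Fancm and the ubiquitin-conjugating enzyme Ube2t. Fancc had 28.7, 27.1 and 27.3 CPM in Ctrl and 27.5 and 33.1 CPM in Confine, so that the groups overlapped. Its log2 fold change was 0.13 (95% interval −0.25 to 0.51), which turned to −0.08 under library size scaling alone and −0.01 without Confine replicate 3. Ube2t was at −0.12 (−0.53 to 0.29), and at 0.06 without Confine replicate 1. Fancg was at −0.43 (−0.90 to 0.04) and Fancm at −0.85 (−1.56 to −0.14, adjusted p = 0.079 by edgeR). Fancm was called lower in 4 of 14 alternative settings (without filterByExpr, under scaling by library size alone, with the identical columns as 2 samples and without Ctrl replicate 3), and Fancg in 2 (under library size alone and with the block that repeats replicate 1).

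Of the 7 genes of checkpoint signalling and fork protection, 4 fell and 1 rose, beside 10.2% of all tested genes lower and 12.8% higher. These 5 belong to the ATR branch or to the replication fork. Chek1, the effector kinase of ATR (chr9:36708482-36727065, minus strand), had 15.1, 15.4 and 9.57 CPM in Ctrl and 3.75 and 3.38 CPM in Confine. Chek1 fell to 26.7% of the Ctrl mean, a log2 fold change of −1.91 (SE 0.27, adjusted p = 3.26e-05 by edgeR), with no overlap between groups. Clspn, the adaptor through which ATR activates CHK1, had 47.0, 56.8 and 37.9 CPM in Ctrl and 15.2 and 15.9 CPM in Confine, a log2 fold change of −1.60 (SE 0.21, adjusted p = 1.76e-05). Timeless, which stabilizes replication forks, had 63.5, 43.7 and 49.0 CPM in Ctrl and 11.3 and 15.7 CPM in Confine, a log2 fold change of −1.95 (SE 0.23, adjusted p = 4.25e-06). These 3 genes were the lowest of the group, and their Confine libraries lay below every Ctrl library. Tipin, the partner of TIMELESS, fell less, by 0.81 (adjusted p = 0.0035), and was not called without Confine replicate 1 (adjusted p = 0.054) or without Confine replicate 3 (adjusted p = 0.061).

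Atr, the kinase at the head of this branch (chr9:95857597-95951781, plus strand), moved the other way. It had 6.74, 9.37 and 6.08 CPM in Ctrl, a mean of 7.40 ± 1.74 (SD, n = 3), and 11.3 and 12.1 CPM in Confine, a mean of 11.7 ± 0.584 (SD, n = 2). The Confine libraries stood above the highest Ctrl library, and the log2 fold change was 0.66 (95% interval 0.17 to 1.15, adjusted p = 0.04994 by edgeR). This adjusted p lies just under the threshold, and Atr lost its call under 10 of 14 alternative settings, with values from 0.45 to 0.87 and adjusted p-values from 0.0048 to 0.25. Those settings include leaving out either Confine library, Ctrl replicate 1 or Ctrl replicate 3.

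The kinases of the ATM branch were not called. Atm, the kinase activated at breaks, had 12.5, 16.5 and 10.6 CPM in Ctrl and 11.8 and 10.2 CPM in Confine, and the groups overlapped. Its log2 fold change was −0.27 (SE 0.23, 95% interval −0.75 to 0.21, adjusted p = 0.45 by edgeR). Chek2, the effector kinase of ATM, had 9.29, 8.54 and 7.74 CPM in Ctrl and 5.64 and 6.39 CPM in Confine, below all Ctrl libraries. Its log2 fold change of −0.50 (95% interval −1.0 to −0.01) did not pass the test (adjusted p = 0.13), and under scaling by library size alone it was −0.71 and passed (adjusted p = 0.033), as it did with the identical columns as 2 samples (adjusted p = 0.022).

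Of the 4 break sensing genes, 1 fell and 3 were not called, beside 10.2% of all tested genes lower. Mre11a, the nuclease of the MRN complex that holds broken ends, had 24.9, 20.9 and 19.4 CPM in Ctrl and 13.6 and 15.5 CPM in Confine, without overlap. It fell by 0.58 on the log2 scale (SE 0.20, adjusted p = 0.044 by edgeR) and lost the call in 5 of 14 alternative settings, among them without Ctrl replicate 1 (adjusted p = 0.20), Confine replicate 1 (0.29) and Confine replicate 3 (0.14). The other MRN subunits, Rad50 at −0.21 (95% interval −0.60 to 0.17) and Nbn at −0.32 (−0.77 to 0.12), were not called. Trp53bp1, whose product 53BP1 shields ends from resection, had 14.9, 13.6 and 14.8 CPM in Ctrl and 15.3 and 15.4 CPM in Confine. Its Confine libraries were above the Ctrl libraries by a narrow margin, and its log2 fold change was 0.09 (−0.33 to 0.50) and turned to −0.12 under scaling by library size alone. Tubgcp4, on the opposite strand, shares 15.0% of the exon bases of Trp53bp1.

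In end joining, Polq fell and none of the 5 classical genes was called by edgeR, with 1 of the 5, Xrcc4, at an unadjusted p under 0.05. DESeq2 and limma-voom also called 0 of the 5, whereas scaling by library size alone, the block that repeats replicate 1 and leaving out Ctrl replicate 2 each called 1 lower, and counting the identical columns as separate samples called 1 higher. Polq, the polymerase of theta-mediated end joining (chr16:37011786-37095417, plus strand), had 8.08, 6.99 and 7.27 CPM in Ctrl and 1.89 and 2.104 CPM in Confine. Its log2 fold change was −1.90 (SE 0.27, adjusted p = 4.85e-05 by edgeR), and both groups were tight and far apart.

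Prkdc, the DNA-dependent protein kinase of classical end joining, had 9.22, 11.8 and 11.4 CPM in Ctrl and 9.83 and 9.57 CPM in Confine. The groups overlapped, and the log2 fold change was −0.15 (SE 0.22, 95% interval −0.61 to 0.30, adjusted p = 0.67 by edgeR). Xrcc4, the scaffold of the ligase, had 11.1, 9.64 and 11.01 CPM in Ctrl and 14.8 and 14.5 CPM in Confine, above all Ctrl libraries. Its log2 fold change of 0.47 (0.04 to 0.90) did not pass the test (adjusted p = 0.11). Tmem167, on the opposite strand, shares 2.66% of the exon bases of Xrcc4 and had a mean count of 8102 against 328 for Xrcc4. The Ku subunits Xrcc5 and Xrcc6 were at −0.12 (−0.54 to 0.30) and −0.42 (−0.85 to 0.01), and the ligase Lig4 was at −0.44 (−1.05 to 0.18).

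Parp1, which marks broken strands with poly(ADP-ribose) (chr1:180568924-180601254, plus strand), had 75.2, 84.7 and 61.9 CPM in Ctrl and 37.2 and 40.7 CPM in Confine. It fell to 52.7% of the Ctrl mean, a log2 fold change of −0.92 (SE 0.19, adjusted p = 0.0018 by edgeR), without overlap between groups. Without Confine replicate 1 it was −0.86 and not called (adjusted p = 0.052). Msh6, a subunit of the mismatch sensor, had 40.4, 42.0 and 28.2 CPM in Ctrl and 24.4 and 26.01 CPM in Confine, a log2 fold change of −0.55 (95% interval −0.98 to −0.12, adjusted p = 0.063). Its Confine libraries were just under the lowest Ctrl library, and it was called lower in 4 of 14 alternative settings: with DESeq2 (adjusted p = 0.0497), under library size alone, with the identical columns as 2 samples and without Ctrl replicate 3. Trex1, a cytosolic exonuclease (chr9:109057933-109059734, minus strand), had 0 counts in all 5 libraries. All 1147 of its exon bases also lie in exons of Atrip on the same strand, where the mean count was 406, so the 0 cannot be read as absence of Trex1 RNA.

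Levels can be compared between genes only per length of annotated exon. This length joins the exons of all annotated transcripts and can exceed that of the mRNA present. On that scale Tipin was the highest of the 38 in Ctrl at 47.8 CPM per kb, followed by Xrcc6 at 14.5 and Parp1 at 13.96. Atr was the lowest in Ctrl at 0.313 CPM per kb, followed by Palb2 at 0.426 and Fancm at 0.432. Atr has 23629 annotated exon bases, so its place in this order depends on the length used. In Confine the level of Tipin was 27.3 CPM per kb and it was still the highest, Xrcc6 was at 10.9, Rad50 at 7.59 and Parp1 at 7.36, while Fanci, Palb2 and Polq were the lowest at 0.161, 0.171 and 0.206.

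Averaged within each library as log2(CPM + 0.5), the 11 recombination genes stood at 3.79, 3.72 and 3.57 in Ctrl and 2.23 and 2.58 in Confine. The 5 classical end joining genes stood at 3.90, 3.75 and 3.90 in Ctrl and 3.72 and 3.75 in Confine. The recombination mean minus the end joining mean was therefore −0.12, −0.03 and −0.33 in Ctrl and −1.5 and −1.17 in Confine, without overlap. The exact permutation test of 3 against 2 libraries cannot give a p under 0.1, and none is given for these means.

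Genes of the dividing cell moved with the recombination genes. Of 28 S phase genes, such as the replicative helicase subunit Mcm5 at −2.04, 26 fell, with a median of −1.48, and E2f1 was the highest at 0.21. Of 28 G2 and M phase genes, from Kif20a at −2.19 to Anln at −1.14, all 28 fell, with a median of −1.61. Among all tested genes 10.2% were called lower. The S phase mean was 6.47, 6.19 and 6.16 in Ctrl and 4.89 and 4.96 in Confine on the log2(CPM + 0.5) scale. The recombination mean minus the S phase mean was −2.69, −2.47 and −2.59 in Ctrl and −2.67 and −2.38 in Confine, so on this measure the groups overlapped. The recombination mean minus the G2 and M phase mean was −2.66, −2.58 and −2.68 in Ctrl and −2.25 and −2.47 in Confine, which did not overlap. The part of the cell cycle genes in the fall of the repair genes was not tested.

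**Figure D3:**
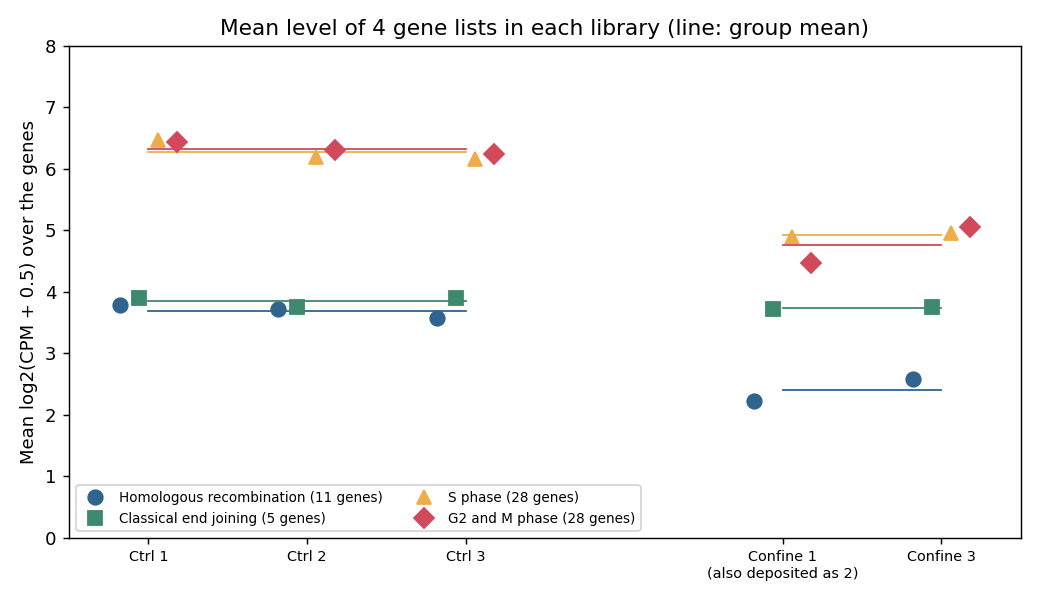
Mean log2(CPM + 0.5) over the genes of 4 lists in each of the 5 libraries, with a point per library and a line at the group mean. The recombination, S phase and G2 and M phase means are lower in both Confine libraries, and the classical end joining means lie between 3.72 and 3.90 in all libraries.

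The p53 pathway is the transcriptional arm of the damage checkpoint, and 24 of its target genes were examined beside the repair genes. Of these, 6 rose and 2 fell, with a median of 0.22, beside 12.8% of all tested genes higher and 10.2% lower. Among the 6, Mdm2 (adjusted p = 0.047 by edgeR) and Xpc (adjusted p = 0.040) lay near the threshold. The call of Xpc was lost in 7 of 14 alternative settings. Polk was also among the 6, and Xpc and Polk are counted again below in the lists of nucleotide excision repair and translesion synthesis. Cdkn1a, which encodes the cell cycle inhibitor p21, had 315, 337 and 224 CPM in Ctrl and 1921 and 2014 CPM in Confine, a log2 fold change of 2.75 (SE 0.20, adjusted p = 1.25e-08 by edgeR). It was the highest of the list and the only member past the cutoff of 1.5, and Sesn1, a stress-induced antioxidant gene, was the lowest at −0.87 (adjusted p = 0.016).

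Other genes of the same pathways, outside the 39, were read as companions. Of 64 such genes 63 were tested, and 25 fell and 2 rose, with a median of −0.28, beside 10.2% of all tested genes lower and 12.8% higher. Among recombination companions 11 of 23 fell and 1 rose, with a median of −0.50. Values ran from Rmi2, a subunit of the BLM complex, at −2.31 (adjusted p = 0.00033 by edgeR) to Rad52, a strand annealing protein, at 0.57 (adjusted p = 0.049). Rad52 lay just under the threshold and lost its call in 8 of 14 alternative settings, DESeq2 and leaving out either Confine library among them. Among Fanconi companions 5 of 11 fell, with the core complex subunit Fancb the lowest at −2.41 (adjusted p = 1.27e-05) and Faap20 the highest at 0.39, which did not pass. Among checkpoint companions 7 of 15 fell, with H2afx, the histone that is phosphorylated at breaks, the lowest at −2.0 (adjusted p = 2.91e-05) and Mad2l2 the highest at 0.09, which did not pass. Among end joining companions none of 8 fell and 1 rose, the polymerase Polm at 1.14 (adjusted p = 0.00027), and Parp2 was the lowest at −0.09. Of 6 mismatch repair companions 2 fell, with values from −0.76 to 0.32. The number of companions that fell went from 25 to 16 without Confine replicate 3 and to 17 without Confine replicate 1.

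The Confine libraries were not alike for these genes. Confine replicate 3 was higher than Confine replicate 1 for 26 of the 38 tested genes (68.4%), with a median difference of 0.12 on the log2 scale, beside 51.3% and 0.01 for all tested genes. Leaving out a Confine library leaves 1, which the fit assumes to vary like the others. Without Confine replicate 1 the number of genes that fell went from 22 to 14, and without Confine replicate 3 it was 19.

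**Figure D4:**
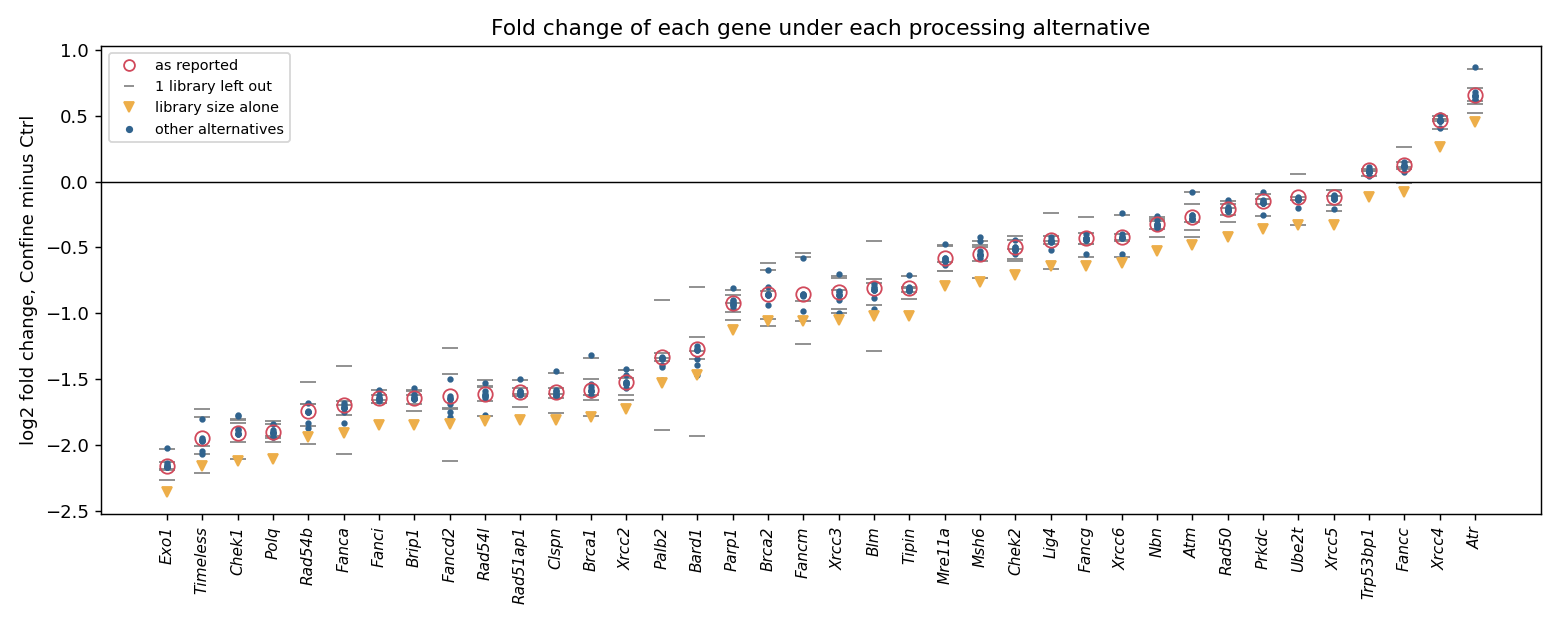
Log2 fold change (Confine minus Ctrl) of each of the 38 tested genes as reported (open circle), with 1 library left out (dashes), under scaling by library size alone (triangles) and under the other alternatives (dots). Atr stays above 0 and Brca1, Chek1 and Parp1 stay below 0 under every setting shown.

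Promoters of 300 bases, 250 before and 50 from the start, were found in RefSeq for 31 of the 39 genes. The RefSeq start equalled the start of the annotated gene for 72.9% of plus-strand genes, and for Bard1 it lay inside the annotated gene, so offsets and windows depend on the start used. An E2F-type word (TTTCCCGC, TTTCGCGC, TTTGCCGC or TTTGGCGC, on either strand) was present in 7 of the 31, beside 2.60% of 27025 promoters of the same length. By call, the word was present in 3 of 17 genes that fell, Bard1, Brca2 and Clspn, and in 4 of the other 14, Chek2, Fancg, Msh6 and Xrcc6. The words CCAAT and TTTGAA, which overlapped no E2F word in these genes, were present in 18 and 3 of the 31, beside 41.1% and 20.2% of all promoters, and in 10 and 2 of the 17 genes that fell. A match is a description of letters in this window, and Exo1, Fancd2, Nbn, Prkdc, Rad50, Rad54b, Tipin and Xrcc2 had no entry.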

How the data were processed

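RNA-seq was done on WT MEF cells, 3 Ctrl and 3 Confine samples. The authors deposited raw read counts per gene, made from polyA-selected, dUTP-marked libraries. The submitters' processing notes name Trim Galore 0.6.10, HISAT2 2.1.0, SAMtools 1.5, featureCounts and mm10. The strand setting of the counting is not given in the sources used here, so overlapping genes are uncertain. Identifiers matched GENCODE M21 (GRCm38) for 54587 of 55335 genes with version and 55154 without.

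The identical Confine columns were counted once, where 3 against 3 had been planned. Genes passing filterByExpr (15881) were TMM-normalized, and edgeR 4.0.16 (R 4.3.3) gave quasi-likelihood p-values with 3 residual degrees of freedom and Benjamini-Hochberg adjustment over these genes. Total counts were 27853805, 24450853 and 22287210 (Ctrl) and 32537550 and 27290138 (Confine). A floor of 3 counts is 0.101 to 0.128 CPM, which covers counting error only. In simulated counts for 15881 genes, 200 were changed. Of genes changed by −1 and 1 on the log2 scale, 51.0% and 67.3% were recovered. Of those changed by −2 and 2, 85.1% and 94.0% were recovered, and 6.45% of calls were false. The real data had far more genes called (3654), so these rates may not carry over to them.

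The 39 genes and all lists were chosen with earlier results of these data known, and the promoter search and overlap checks were added after the data were seen. Values per library are given for Brca1, Brca2, Atm, Atr, Chek1, Chek2, Parp1 and Prkdc, for genes past the cutoff, and for the highest and lowest of each role. Other genes are given by value or range, and companion lists by counts with the highest and lowest gene named where given. Mdm2, Xpc and Polk are also named among the p53 target genes. Alternatives were DESeq2 1.42.0, limma-voom (limma 3.58.1), other filters, scalings and cutoffs, the replicate block, the identical columns as 2 samples, and leaving out each library. Sequences are from RefSeq (GRCm38.p6).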

Additional observations from a re-analysis of the deposited data

How the results depend on the processing

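The number of the 39 genes that fell (22) was 27 under library size alone, 25 with the identical columns as 2 samples, 23 with DESeq2, 17 at an adjusted p under 0.01, and 14 to 24 with 1 library left out, lowest without Confine replicate 1. The number that rose (1) was 0 without filterByExpr, with at least 10 counts in every library, with DESeq2 size factors, under library size alone, with DESeq2, at an adjusted p under 0.01, and 0 to 1 with 1 library left out, and it was 2 with the identical columns as 2 samples. The 14 genes past the cutoff ranged from 10 to 16 over these settings.

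With a replicate block, the repeated column taken as replicate 2 gave 19 lower and 0 higher, and taken as replicate 1 gave 24 lower. The correlations of deviations from the group mean were 0.0936 and −0.00746 for libraries of equal number. With 2 Confine libraries, the deviations of 1 are the exact negative of the other's. These values therefore cannot decide whether the replicate numbers pair the samples.

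Over all tested genes, 1619 fell and 2035 rose. The number lower was 2805 under library size alone, which shifts the median of all genes by −0.21, 2456 with the identical columns as 2 samples, and 850 to 2015 with 1 library left out, and the number higher was 1196 to 2411. Of 95 companions, 32 fell (19 to 35 with 1 library left out) and 5 rose (3 without filterByExpr, 2 under library size alone, 2 with the replicate block as replicate 2, 1 to 4 with 1 library left out). The median of the 38 genes was −1.05 under library size alone and −1.05 to −0.68 with 1 library left out. Signs turned for Fancc (−0.08 under library size alone, −0.01 to 0.26 with 1 library left out, lowest without Confine replicate 3), Ube2t (−0.33 to 0.06 with 1 library left out, highest without Confine replicate 1) and Trp53bp1 (−0.12 under library size alone). The cause of these changes was not tested. Among low genes, Fanci had 28 and 23 counts and Palb2 had 25 and 42 counts in Confine replicates 1 and 3. The part of depth in their values was not tested.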

Other observations

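Repair pathways beyond those of the 39 genes were read from companion lists. In base excision repair, 4 of 13 tested genes fell, beside 10.2% of all tested genes, with a median log2 fold change of −0.57. Values ran from Fen1, the flap nuclease that also matures Okazaki fragments, at −1.62 (adjusted p = 0.0037 by edgeR's quasi-likelihood test) to the glycosylase Neil1 at 0.46, which did not pass. In nucleotide excision repair, 1 of 13 genes fell and 2 rose, with a median of 0.06, near the 10.2% lower and 12.8% higher of all tested genes. Ercc8, a subunit of the transcription-coupled branch, was the lowest at −0.71 (adjusted p = 0.049) and Xpc, the damage sensor of the global branch, the highest at 0.59 (adjusted p = 0.040), and these calls were lost in 8 and 7 of 14 alternative settings, leaving out either Confine library among them. In translesion synthesis, 2 of 6 genes fell and 1 rose, with the ubiquitin ligase Rad18 the lowest at −0.84 (adjusted p = 0.0087) and the polymerase Polk the highest at 0.82 (adjusted p = 0.0030). Fen1 and Polk were not called without Confine replicate 3 (adjusted p = 0.063 and 0.061), nor Rad18 without Confine replicate 1 (adjusted p = 0.20).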
